A study of Mus musculus with 6 samples.

Results

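Cholesterol synthesis was followed through 7 genes in retinae that lack the pocket proteins RB and p107, with and without the chromatin remodeler HELLS. The 7 genes were Srebf2, Hmgcs1, Idi1, Fdps, Fdft1, Sqle and Dhcr7, taken by their symbols from a table of 24062 genes, and all 7 were found and passed the filter on low counts. Of the 7, Fdft1 alone rose at an adjusted p of at most 0.05 in edgeR, by 1.47-fold, where 7.35% of all tested genes rose. DESeq2, the tool that the study's methods name, called 4 of the 7 higher, against 8.94% of genes. All 7 had a fitted log2 fold change above 0, between 0.22 and 0.55, where 48.8% of all tested genes were above 0.

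The retinae were taken at postnatal day 21 from mice whose strain the labels give as C57BL/6 and the study's methods as C57BL/6N. The 3 Rb1/p107/Hells TKO retinae were Chx10-Cre Rb1 lox/lox p107-/- Hells lox/lox, and the 3 Rb1/p107 DKO retinae were Chx10-Cre Rb1 lox/lox p107-/-. Both groups therefore carry the same Cre, the floxed Rb1 alleles and the germline loss of p107, and a retina with intact Rb1 and p107 was not among these libraries. Chx10-Cre acts in retinal progenitors in a mosaic pattern, so that a retina keeps cells that did not recombine. The comparison addresses how the transcriptome of the young retina differs when Hells is removed as well. Retinae are the samples here, and the labels do not say that each came from its own animal. The p-values therefore set the group difference against the spread between retinae of a group, which may not be a spread between animals.

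Cells build cholesterol from acetyl-CoA through mevalonate, the isoprenyl diphosphates, squalene and then a series of sterols. SREBP2, encoded by Srebf2, is a transcription factor held in the endoplasmic reticulum membrane by SCAP and INSIG proteins while sterols are plentiful, and it is cleaved and enters the nucleus when they run low, where it activates the genes of the pathway and of lipoprotein uptake. The retina both makes cholesterol, in Muller glia among other cells, and takes it up from the circulation, and photoreceptors use it in membranes that they renew every day.

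SREBP2 is known to bind sterol regulatory elements near CCAAT boxes, so the promoters of 3 of the genes are shown as sequence. A RefSeq promoter of build GRCm38.p6, from 250 bases before to 50 bases after the start of transcription, was matched for 4 of the 7 genes (Srebf2, Hmgcs1, Idi1 and Dhcr7). The lines give Srebf2 at chr15:82147019-82147318, Hmgcs1 at chr13:119690101-119690400 and Idi1 at chr13:8885356-8885655, all on the plus strand and 5′ to 3′. Capitals mark a sterol regulatory element or its core TCACNCC, and a CCAAT box, which reads ATTGG where it lies on the other strand.
Srebf2: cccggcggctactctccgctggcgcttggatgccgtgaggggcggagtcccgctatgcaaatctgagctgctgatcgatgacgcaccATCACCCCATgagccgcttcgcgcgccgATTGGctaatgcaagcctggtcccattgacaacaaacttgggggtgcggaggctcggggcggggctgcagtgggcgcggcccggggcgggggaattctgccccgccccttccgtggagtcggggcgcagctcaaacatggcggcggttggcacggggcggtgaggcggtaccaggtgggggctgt
Hmgcs1: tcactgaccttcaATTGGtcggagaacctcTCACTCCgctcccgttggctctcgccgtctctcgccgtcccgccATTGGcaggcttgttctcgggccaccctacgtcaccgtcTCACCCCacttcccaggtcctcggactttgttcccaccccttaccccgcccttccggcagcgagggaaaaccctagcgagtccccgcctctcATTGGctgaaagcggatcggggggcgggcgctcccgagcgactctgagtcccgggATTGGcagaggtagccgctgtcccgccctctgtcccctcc
Idi1: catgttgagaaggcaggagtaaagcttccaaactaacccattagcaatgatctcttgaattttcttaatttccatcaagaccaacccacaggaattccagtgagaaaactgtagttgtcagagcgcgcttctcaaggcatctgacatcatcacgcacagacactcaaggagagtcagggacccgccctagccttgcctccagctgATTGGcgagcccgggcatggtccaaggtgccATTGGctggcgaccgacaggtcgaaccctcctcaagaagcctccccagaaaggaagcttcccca

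The Srebf2 promoter held a full match to a degenerate consensus of the sterol regulatory element, searched by its letters on both strands. Such a match is held by 0.384% of all 32851 promoters of the same length. The Srebf2 match begins at position -163 from the start site and is followed by a CCAAT box at -135. The Hmgcs1 promoter held the core TCACNCC at -220 and -137, a motif in 15.6% of all promoters, with CCAAT boxes at -237, -176, -45 and 10. The Idi1 window held CCAAT boxes at -45 and -14 and no core. A CCAAT box was found for all 4 genes with a promoter and for 16 of the 18 pathway genes that had one, against 37.4% of all promoters. Dhcr7 has several annotated starts, so counted by window, as the shares over all promoters are, 4 of the 6 windows of the 4 genes held a CCAAT box and 5 the GC box. Of the other motifs searched, also on both strands and allowed to overlap, the GC box GGGCGG was found in all 4 genes (35.7% of all promoters), the E-box CACGTG in Dhcr7 (7.15%) and the E2F core GGCGGGA in Hmgcs1 (11.3%). Such a match describes the letters of the window and shows no binding.

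The libraries held between 10343907 and 14203098 counts on genes, and 16904 genes with at least 10 counts in all were tested. Hells itself had 60.8, 68.4 and 83.4 normalized counts in the TKO retinae and 678, 523 and 395 in the DKO retinae, so each library followed its label. A normalized count is a count divided by the library's size, scaled by the TMM method and relative to the mean size. Retinal markers were abundant in all 6 libraries, with the rod gene Gnat1 at no less than 26618 and the Muller glia gene Glul at no less than 12912 normalized counts. In bulk retina, fewer cells of a type and less RNA per cell cannot be told apart.

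Srebf2, at 82147181 to 82205379 on the plus strand of chromosome 15 (GRCm38, as for the other positions of genes), had 2122, 2548 and 2139 normalized counts in TKO retinae 1, 2 and 3 and 1750, 1557 and 2315 in DKO retinae 1, 2 and 3. The third DKO retina lay above 2 of the TKO retinae, so the groups overlapped. The means were 2270 ± 241 and 1874 ± 394 (SD, n = 3 each), and the log2 fold change was 0.28 (standard error, SE, 0.150, 95% interval -0.066 to 0.62, adjusted p = 0.233 by the quasi-likelihood test of edgeR). The difference in the regulator's own transcript did not pass the test.

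Hmgcs1 encodes HMG-CoA synthase, an early enzyme of the mevalonate pathway, and lies at 119690379 to 119708260 on the plus strand of chromosome 13. It had 2404, 2671 and 1868 normalized counts in TKO and 1521, 1389 and 2019 in DKO retinae. The first and second TKO retinae were above all DKO retinae, and the third was below the third DKO retina. The gene model Gm48342, which is not among the genes counted, shares 557 bp of exon with Hmgcs1 on the opposite strand. With means of 2314 ± 409 and 1643 ± 332 (SD, n = 3 each), the log2 fold change was 0.49 (SE 0.169, 95% interval 0.11 to 0.88) at an adjusted p of 0.0810 in edgeR.

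Idi1 encodes isopentenyl diphosphate isomerase, which interconverts the 5-carbon units from which all longer isoprenoids are built, and lies at 8885501 to 8892451 on the plus strand of chromosome 13. Its TKO retinae had 931, 874 and 603 normalized counts, while the DKO retinae lay close together at 591, 573 and 623. The third TKO retina fell among the DKO values. The means of 802 ± 175 and 595 ± 25.3 (SD, n = 3 each) gave a log2 fold change of 0.43 (SE 0.152, 95% interval 0.083 to 0.78) and an adjusted p of 0.0880 in edgeR. Processed pseudogenes share near-identical sequence with Idi1 (Gm13502 over 684 bp and Gm35570 over 681 bp). Neither is among the genes counted, and whether reads were lost to them was not tested.

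Fdps encodes farnesyl diphosphate synthase, the last enzyme before the pathway branches to sterols, dolichol, ubiquinone and prenylated proteins. It lies on the minus strand of chromosome 3 at 89093588 to 89101959, and 1124 bp of its exons are shared with the gene model Gm43738 on the same strand. This model is not among the genes counted. TKO retinae had 1141, 1144 and 756 normalized counts and DKO retinae had 590, 663 and 828. As with Hmgcs1, the third DKO retina exceeded the third TKO retina and the other TKO retinae were above all DKO retinae. The means were 1014 ± 223 and 694 ± 122 (SD, n = 3 each), and the log2 fold change of 0.55 (SE 0.181, 95% interval 0.13 to 0.96) had an adjusted p of 0.0734 in edgeR.

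Fdft1 encodes squalene synthase, which joins farnesyl units into squalene and commits them to sterols, and lies on the minus strand of chromosome 14 at 63145150 to 63179578. Its normalized counts were 1336, 1441 and 1063 in TKO and 744, 819 and 1054 in DKO retinae. The groups did not overlap, although the lowest TKO and the highest DKO retina, both of replicate number 3, lay next to each other. The means were 1280 ± 195 and 872 ± 162 (SD, n = 3 each), the log2 fold change was 0.55 (SE 0.154, 95% interval 0.20 to 0.91) and the adjusted p was 0.0437 in edgeR. Fdft1 shares 774 bp of exon with the protease gene Ctsb on the opposite strand, and whether the counting used strand is not given in the sources used here. A processed pseudogene, Gm6781, also matches Fdft1 over 1249 bp and is not among the genes counted. Ctsb, looked up after its overlap was seen, averaged 7318 ± 37.6 and 7564 ± 778 normalized counts in TKO and DKO (SD, n = 3 each), and its log2 fold change was -0.048 (adjusted p = 0.779 in edgeR).

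Sqle encodes squalene epoxidase, a rate-limiting oxidation step of the sterol arm, and lies at 59315077 to 59331192 on the plus strand of chromosome 15. TKO retinae had 970, 1041 and 866 normalized counts and DKO retinae had 778, 746 and 945, with the third retina of each group again crossing into the other. The means of 959 ± 87.8 and 823 ± 107.1 (SD, n = 3 each) gave the lowest log2 fold change of the 7 genes, 0.22 (SE 0.114, 95% interval -0.040 to 0.48, adjusted p = 0.213 in edgeR).

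Dhcr7 encodes 7-dehydrocholesterol reductase, which performs the final reduction to cholesterol, and lies at 143823145 to 143848410 on the plus strand of chromosome 7. It had 688, 659 and 545 normalized counts in TKO and 460, 449 and 529 in DKO retinae, with no overlap between the groups. The means were 631 ± 75.7 and 480 ± 43.4 (SD, n = 3 each). Its log2 fold change of 0.40 (SE 0.116, 95% interval 0.13 to 0.66) had an adjusted p of 0.0518 in edgeR, just outside the threshold.

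**Figure D1:**
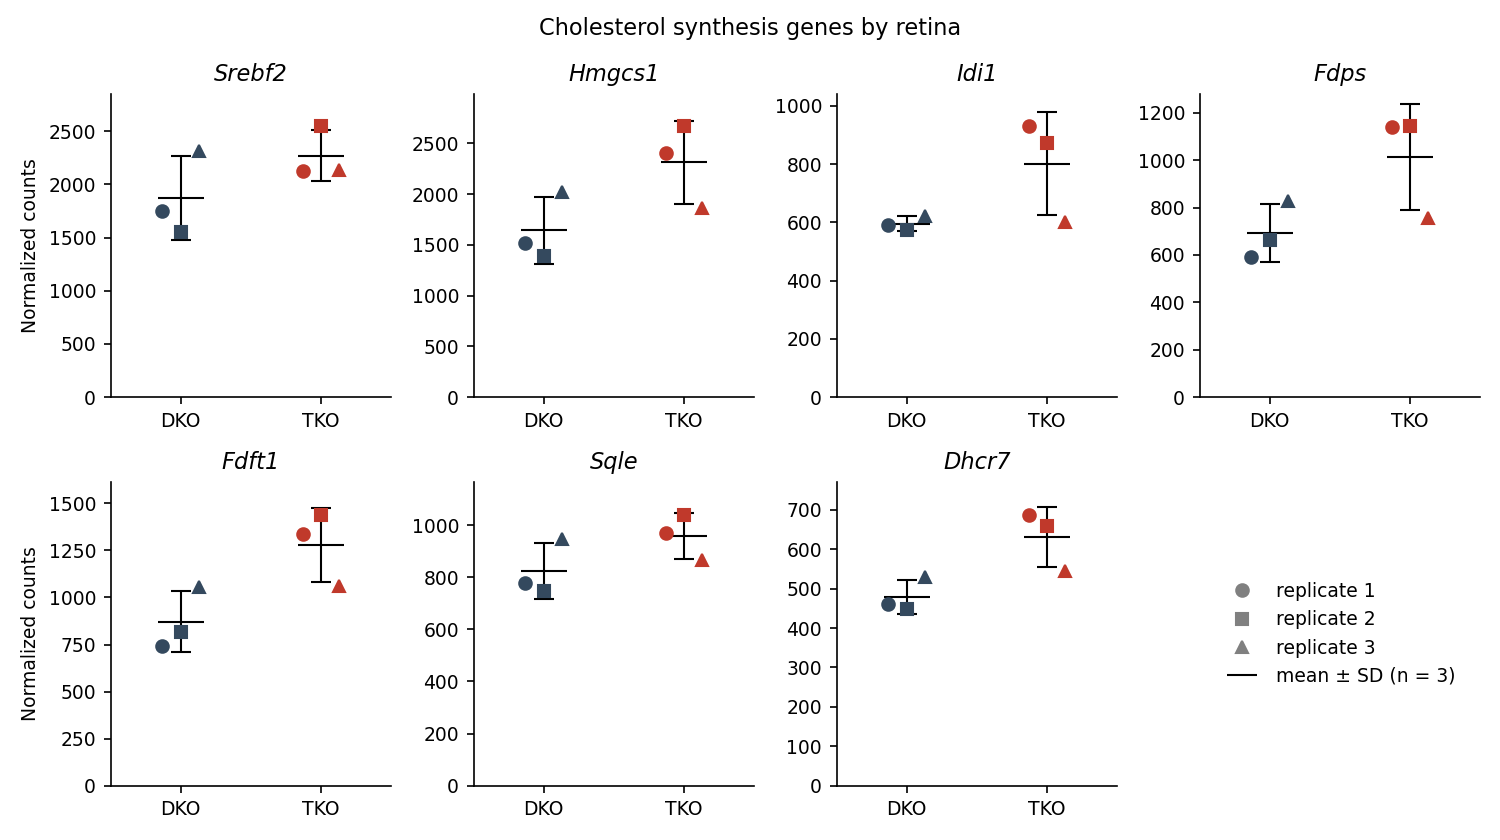
Normalized counts (y axis, from 0) of each of the 7 genes in the 3 DKO and 3 TKO retinae, with symbols for the replicate number and the mean ± SD as bars. TKO replicate 3 is the lowest TKO retina for 6 genes and DKO replicate 3 the highest DKO retina for 7.

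Counted over the 7 genes, 1 rose at an adjusted p of at most 0.05, against 7.35% of the 16904 tested genes that were higher in TKO by this rule. None passed the 3 criteria that the study's methods set, applied here to the edgeR fit. They add a log2 fold change of 1 or more in size and 10 normalized counts on average (1.97% of tested genes were higher and 4.38% lower by these). An unadjusted p under 0.05 with a higher TKO value was found for 5 of the 7, against 15.3% of all genes. DESeq2, the tool that the study used, gave an adjusted p of at most 0.05 for 4 of the 7 (Fdft1 0.00870, Fdps 0.0260, Hmgcs1 0.0293 and Dhcr7 0.0354), against 8.94% of 16549 genes. TKO and DKO retinae did not overlap, with TKO higher, for 2 of the 7 and for 18.0% of all genes. All 7 fitted values were above 0, where 48.8% of all genes were, and their median log2 fold change was 0.43 against a median of -0.011 over all tested genes. The 7 genes vary together across the retinae and were listed with earlier results known, so these counts describe them and do not add up to a test.

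Most of the 7 genes ranked the retinae in a like way. DKO replicate 3 was the highest DKO retina for 7 of 7 genes, which held for 36.0% of all genes. TKO replicate 3 was the lowest TKO retina for 6 of 7 genes, all but Srebf2, which held for 35.3% of all genes. TKO replicate 1 was above all DKO retinae for 6 genes, TKO replicate 2 for 7 and TKO replicate 3 for 2, and for 5 genes DKO replicate 3 was above TKO replicate 3. Summed over the 7 genes, the normalized counts were 9592, 10378 and 7839 in TKO and 6435, 6194 and 8313 in DKO retinae.

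**Figure D2:**
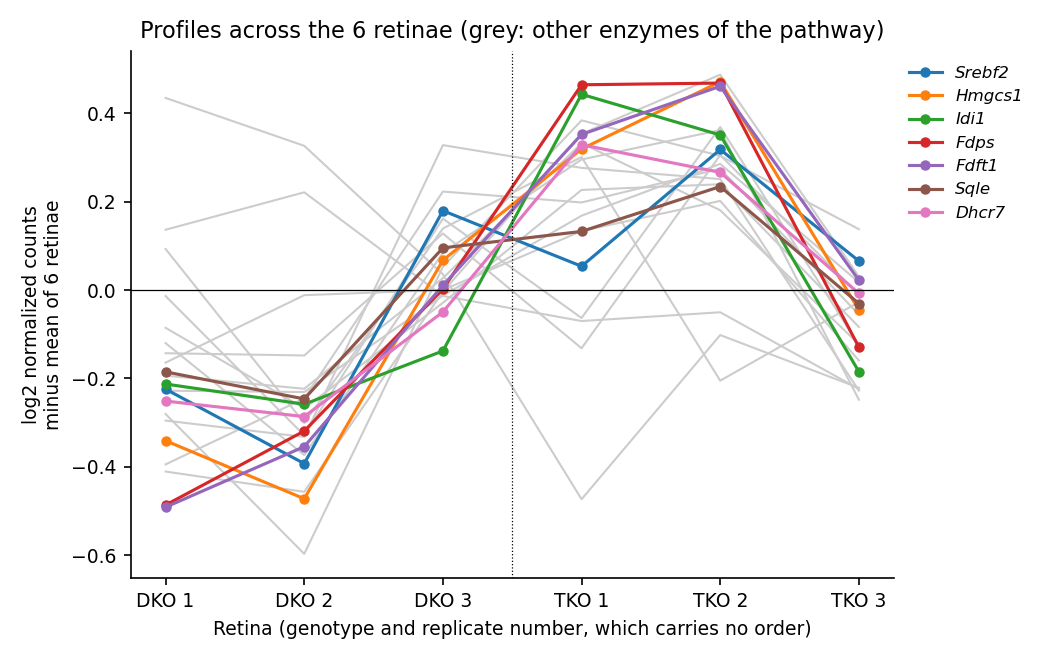
Log2 normalized counts of each gene minus its mean over the 6 retinae (y axis), for the 7 genes in color and 14 other enzymes of the pathway in grey, against the retina (x axis, whose order carries no meaning). The third retina of each group lies closer to the other group than its fellow replicates do for at least 6 of the 7 genes.

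Which genes passed the threshold depended on the retinae that were kept. Without DKO replicate 3, Dhcr7, Fdft1, Fdps, Hmgcs1 and Srebf2 passed edgeR's test, and without TKO replicate 3 they were Dhcr7, Fdft1, Fdps, Hmgcs1 and Idi1. Over all genes, 1483 and 1617 were higher by the adjusted p in these fits, against 1243 with all retinae. Leaving out TKO replicate 1, TKO replicate 2, DKO replicate 1 or DKO replicate 2 left none of the 7 past the threshold. The genes higher over the whole table were then 541, 308, 312 and 214, in that order. Fdft1 had an adjusted p between 0.0121 and 0.147 in edgeR over the 6 fits with 1 retina left out. Scaling by total counts alone also ended the call for Fdft1, whose log2 fold change was then 0.39. The whole table moved under that scaling, to a median log2 fold change of -0.17, and the median of the 7 genes was then 0.27. The 7 genes were above 0 under every alternative run, and Sqle passed under none.

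**Figure D3:**
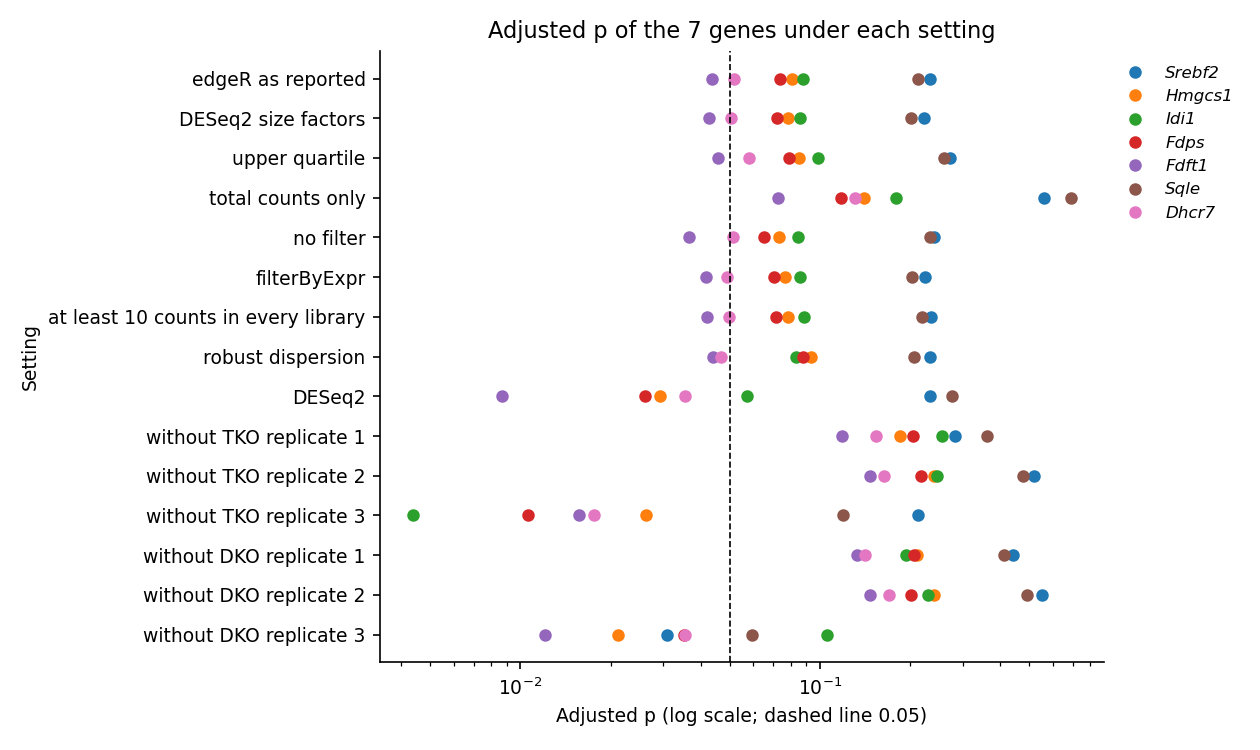
Adjusted p (x axis, log scale) of the 7 genes under the reported edgeR fit and 14 of the 15 alternatives that give one (y axis, all but the replicate block), with a dashed line at 0.05. Without the third retina of either group 5 of the 7 genes lie left of the line, and without any of the other retinae none does.

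Summed markers of rods, cones, bipolar cells and retinal pigment epithelium ranked the third retina of each group as the summed 7 genes did. Those of Muller glia did so only with Glul included. All 12 rod markers rose, with a median log2 fold change of 1.81, and their summed normalized counts were 803591, 692347 and 400122 in TKO and 140060, 136800 and 259097 in DKO retinae. The third TKO retina was thus the lowest and the third DKO retina the highest of its group. Cone markers summed to 17970, 12572 and 6919 in TKO and 4830, 5576 and 7913 in DKO retinae, and 2 of 8 rose. Bipolar markers summed to 25365, 19982 and 18391 in TKO and 16040, 17764 and 19033 in DKO retinae, and 2 of 10 rose. The sums of ganglion cell, oligodendrocyte and lens markers did not have this order. Those of microglia markers, and of amacrine and horizontal markers, had the opposite order, with the third TKO retina highest and the third DKO retina lowest. Amacrine and horizontal markers summed to 23838, 25816 and 26625 in TKO and 26203, 27246 and 25243 in DKO retinae. Of 10 markers of dividing cells 10 fell. Their sums of 2228, 3154 and 5171 in TKO and 17926, 14819 and 9763 in DKO retinae also had the opposite order. No rod or dividing cell marker was at 0 in any library. Among 12 Muller glia markers 5 rose and 2 fell, with a median log2 fold change of 0.11, and their sums ran from 75809 to 77111 in TKO and from 56125 to 62794 in DKO retinae. Glul, the glutamine synthetase of these cells, rose (log2 fold change 1.15, SE 0.134, adjusted p = 0.00548 in edgeR). Without Glul, a sum added after its values were seen, the list summed to 42576, 44917 and 48824 in TKO and 43796, 43214 and 49189 in DKO retinae. The groups then overlapped, and the third TKO retina was the highest of its group instead of the lowest. Of 8 microglia markers 5 fell, with sums from 1672 to 2922 in TKO and from 3330 to 5048 in DKO retinae. Lens markers summed to 647, 3610 and 560 in TKO and to 111 to 118 in DKO retinae, 5 of 9 rose, and Lim2 of this list was at 0 in TKO replicate 1 and in every DKO retina. Markers of the retinal pigment epithelium summed to 870 to 2834 in TKO and 247 to 1246 in DKO retinae, and 1 of 7 rose. Beside these marker counts, 7.35% of all tested genes rose and 9.20% fell. Whether these cell populations have a part in the values of the 7 genes was not tested.

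The other 16 enzymes of the pathway, listed whatever their values, show the same comparison along its whole length. Of these, 2 rose, 1 fell and 13 did not pass the test, against 7.35% of all genes higher and 9.20% lower, and their median log2 fold change was 0.26. Of the 2 that rose, Msmo1 is described here. Msmo1, the methylsterol oxidase, had 657, 721 and 525 normalized counts in the TKO and 387, 375 and 513 in the DKO retinae, with a log2 fold change of 0.58 (SE 0.158, adjusted p = 0.0410 in edgeR). The groups did not overlap, and the third DKO retina was the highest of its group.

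Lbr was the enzyme that fell. It encodes the lamin B receptor, a protein of the inner nuclear membrane that tethers heterochromatin and also has sterol C14 reductase activity. Lbr had 356, 460 and 423 normalized counts in TKO and 667, 619 and 506 in DKO retinae, with a log2 fold change of -0.53 (SE 0.137, adjusted p = 0.0338 in edgeR). Tm7sf2, the other C14 reductase, had 209 ± 38.0 and 202 ± 32.2 normalized counts (SD, n = 3 each) and a log2 fold change of 0.05. The calls for Msmo1 and Lbr were lost when TKO replicate 1, TKO replicate 2, DKO replicate 1 or DKO replicate 2 was left out, with adjusted p-values up to 0.146 and 0.115. That for Msmo1 was also lost under scaling by total counts alone (adjusted p = 0.0672).

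Of the enzymes that did not pass, Lss, the lanosterol synthase that closes the ring system, had a log2 fold change of 0.53 (adjusted p = 0.0571 in edgeR) with no overlap between groups. Acat2, the thiolase of the first step, was the only enzyme besides Lbr with a value below 0 (log2 fold change -0.23, adjusted p = 0.168 in edgeR), and its transcript is near-identical to that of Acat3. Under scaling by total counts alone Acat2 passed as lower (log2 fold change -0.39, adjusted p = 0.0403 in edgeR). A further 10 enzymes had log2 fold changes between 0.05 and 0.32. Of these, Tm7sf2, Hsd17b7, Erg28 and Ebp turned to -0.11, -0.032, -0.038 and -0.040 when libraries were scaled by total counts alone.

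Of the 22 enzymes in all, 20 had a fitted value above 0, 3 rose and 1 fell, against 48.8%, 7.35% and 9.20% of all tested genes. By stage, the 8 enzymes up to farnesyl diphosphate had a median log2 fold change of 0.37 with 0 called by edgeR, 5 at an unadjusted p under 0.05 (33.1% of all tested genes) and 3 higher by DESeq2 (8.94%). The 3 enzymes that make and first convert squalene had a median of 0.53 with 1 called, 2 at an unadjusted p under 0.05 and 2 higher by DESeq2. The 11 sterol enzymes had a median of 0.26, with 2 higher and 1 lower, 5 at an unadjusted p under 0.05 and 3 higher by DESeq2.

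**Figure D4:**
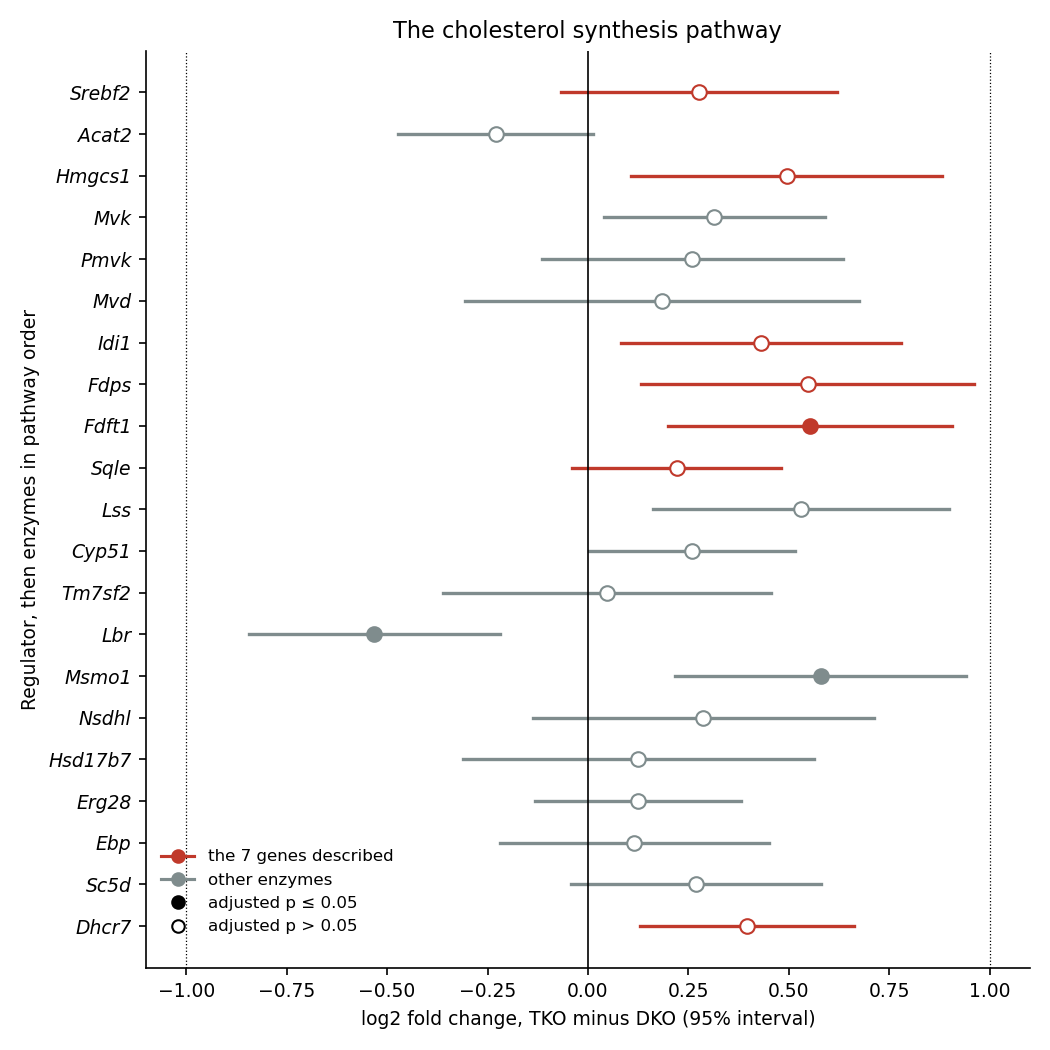
Log2 fold change of TKO against DKO with its 95% interval (x axis) for Srebf2 and 20 of the 22 enzymes in pathway order (y axis). Red marks the 7 genes, filled points have an adjusted p of at most 0.05, and the dotted lines mark the log2 fold change of 1 in either direction that the study's criteria ask for.

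Of the 10 genes that process SREBP proteins or feed back on them, 0 passed edgeR's test, 2 had an unadjusted p under 0.05 in either direction, where 33.1% of all tested genes did, and DESeq2 called 0. Insig1, an SREBP2 target that retains SCAP, had 1166, 1200 and 929 normalized counts in the TKO and 746, 637 and 1057 in the DKO retinae, with a log2 fold change of 0.43 (SE 0.184, adjusted p = 0.142 in edgeR). Scap had a log2 fold change of 0.25 (adjusted p = 0.177). Srebf1, which encodes the related factor SREBP1, had 1389 ± 21.7 and 1372 ± 67.2 normalized counts (SD, n = 3 each), and its log2 fold change of 0.02 (adjusted p = 0.888) became -0.14 under scaling by total counts alone. The list had a median of 0.092.

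Among 11 genes of cholesterol uptake and endosomal export 2 rose and 0 fell, against 7.35% and 9.20% of all tested genes. Scarb1, a receptor for high-density lipoprotein, had 1889, 1776 and 1478 normalized counts in the TKO and 965, 947 and 1338 in the DKO retinae, with a log2 fold change of 0.66 (SE 0.151, adjusted p = 0.0225 in edgeR). Npc1, which carries cholesterol out of late endosomes, had 1251, 1301 and 1136 against 1028, 976 and 983, a log2 fold change of 0.30 (SE 0.0792, adjusted p = 0.0352 in edgeR). The median of the list was 0.050. Both calls were lost without TKO replicate 1, TKO replicate 2, DKO replicate 1 or DKO replicate 2 (adjusted p up to 0.0907 for Scarb1 and 0.131 for Npc1). That of Npc1 was also lost without DKO replicate 3 (0.0631) and under scaling by total counts alone, where its log2 fold change was 0.14 (adjusted p = 0.209).

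The 14 genes of efflux, cholesterol esters and oxysterols had a median log2 fold change of -0.26, with 2 higher and 3 lower, against 7.35% and 9.20% of all tested genes. Abca1, the transporter that loads cholesterol onto lipid-poor apolipoproteins, had 733, 602 and 1054 normalized counts in the TKO and 1623, 1367 and 1280 in the DKO retinae, and fell by 0.84 on the log2 scale (adjusted p = 0.0226 in edgeR). Apoe, a lipid carrier made by glia and microglia, had log2 fold change -0.90 (adjusted p = 0.0466), and Lcat, which esterifies cholesterol on lipoproteins, had -0.96 (adjusted p = 0.0337). The neuronal transporter Abcg4 rose, with 2455, 2145 and 1746 normalized counts in TKO and 1130, 1130 and 1402 in DKO retinae (log2 fold change 0.79, SE 0.140, adjusted p = 0.0106 in edgeR). Pltp, the phospholipid transfer protein, rose by a log2 fold change of 0.66 (adjusted p = 0.0272). The calls for Abca1, Apoe, Lcat and Pltp were each lost without TKO replicate 1, TKO replicate 2, DKO replicate 1 or DKO replicate 2, with adjusted p-values up to 0.0839, 0.145, 0.106 and 0.111, those for Apoe and Lcat also without DKO replicate 3 (0.0774 and 0.0536), that for Apoe with robust dispersion (0.0763), and that for Abcg4 without DKO replicate 1 or 2 (0.0510 and 0.0536).

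None of the 11 genes of the isoprenoid branch, which use farnesyl diphosphate for dolichol, ubiquinone and prenylation, passed edgeR's test. Of these 3 had an unadjusted p under 0.05, against 33.1% of all tested genes, DESeq2 called 0, and the median was 0.095. Dhdds, a subunit of the dolichol-forming prenyltransferase, had 1185 ± 30.0 and 1020 ± 56.0 normalized counts (SD, n = 3 each) and a log2 fold change of 0.22 (adjusted p = 0.0840). Of 12 fatty acid synthesis genes that SREBP1 is known to drive, 3 rose and 1 fell, with a median of 0.23. Pnpla3, a lipid droplet acyltransferase and lipase, had 1375, 896 and 778 normalized counts in the TKO and 523, 440 and 507 in the DKO retinae (log2 fold change 1.05, SE 0.198, adjusted p = 0.0124 in edgeR). Me1, the malic enzyme that supplies NADPH, rose by 0.52 on the log2 scale (adjusted p = 0.0158) and Acss2 by 0.34 (adjusted p = 0.0379), while the desaturase gene Fads1 fell by 0.32 (adjusted p = 0.0251). Fasn, the fatty acid synthase, had a log2 fold change of -0.25 (adjusted p = 0.157). The calls for Me1, Acss2 and Fads1 were lost without TKO replicate 1, TKO replicate 2, DKO replicate 1 or DKO replicate 2 (adjusted p up to 0.0739, 0.130 and 0.0953). That for Acss2 was also lost under scaling by total counts alone, at a log2 fold change of 0.18 (adjusted p = 0.168), and that for Pnpla3 without DKO replicate 1 or 2 (0.0502 and 0.0599). Over all tested genes 16.6% passed in either direction.

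**Figure D5:**
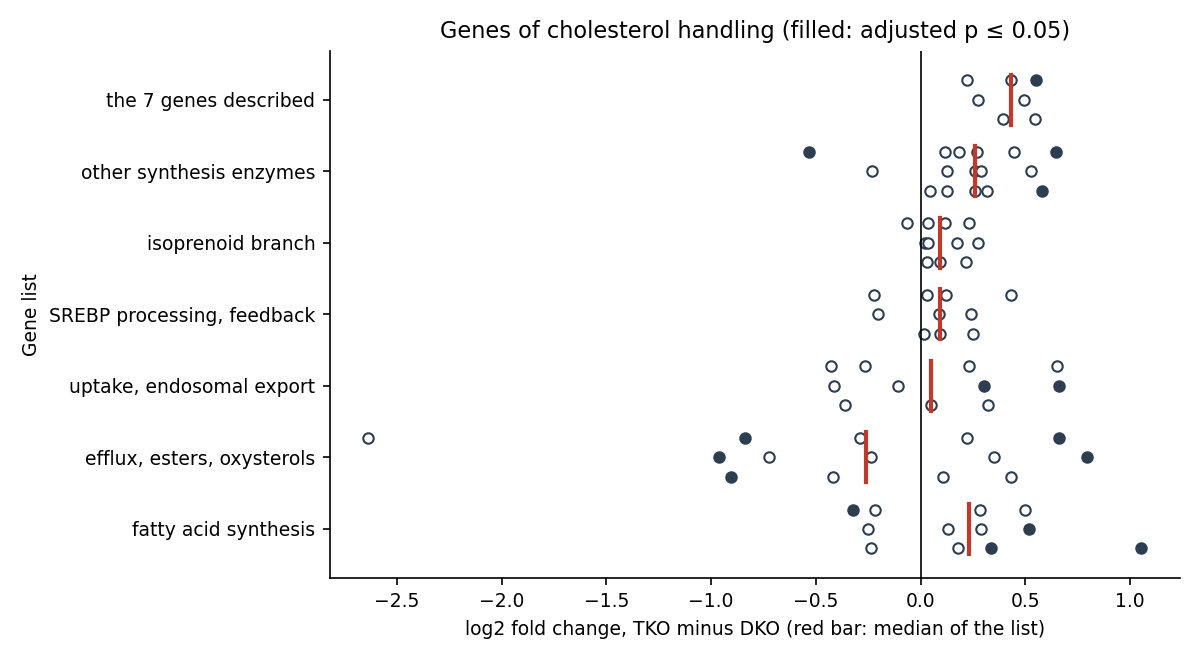
Log2 fold change of TKO against DKO (x axis) for each gene of 7 lists of cholesterol handling (y axis, points spread vertically for sight only), with filled points at an adjusted p of at most 0.05 and a red bar at each list's median. The medians run from -0.26 for efflux to 0.43 for the 7 genes described.

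Per kilobase of annotated exon, Hmgcs1 had the highest level of the 7 genes, at 504 ± 89.1 normalized counts per kilobase in TKO and 358 ± 72.3 in DKO (SD, n = 3 each, as for the others). It was followed by Srebf2 (316 ± 33.6 and 260.8 ± 54.8), Fdft1 (303 ± 46.2 and 206 ± 38.3), Fdps (241 ± 53.0 and 165 ± 29.0), Idi1 (229 ± 50.1 and 170 ± 7.21), Sqle (173 ± 15.8 and 148 ± 19.3) and Dhcr7 (108 ± 13.01 and 82.4 ± 7.47). In TKO retinae the ranges over libraries of neighbours in this order overlapped from Srebf2 down to Sqle, while Hmgcs1 lay above and Dhcr7 below all others. In DKO retinae the ranges of Hmgcs1 and Srebf2 overlapped as well, Idi1 had a higher mean than Fdps, and Dhcr7 was again below the rest. The highest of the 7 was 4.51 times the lowest over all 6 libraries. When the longest transcript was used as the length, it was 2.90 times the lowest, with the same order. By that length Sqle and Dhcr7 were nearly equal over all 6 libraries, at 200 and 197 normalized counts per kilobase. The place of Dhcr7 clearly below the rest therefore depends on the length used.

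Across the 6 libraries the 21 pairs of the 7 genes had Pearson correlations of log2 normalized counts between 0.61 (Srebf2 with Idi1) and 0.99 (Hmgcs1 with Sqle), with a median of 0.94. After the group means were subtracted the values ran from 0.31 to 0.99 with a median of 0.87. These are descriptions over 6 points that share 2 groups and their library scaling. Of 11680 genes with a mean of at least 100 normalized counts, the profile nearest to each gene was 2310003H01Rik for Srebf2 (Pearson 0.995), Hspb6 for Hmgcs1 (0.998), Bzw2 for Idi1 (0.996), Mfn2 for Fdps (0.996), Mrpl2 for Fdft1 (0.998), Rhbdf2 for Sqle (0.994) and Gtpbp1 for Dhcr7 (0.998). The best-ranked pathway gene stood at rank 11 for Hmgcs1 (Msmo1), 12 for Sqle (Hmgcs1), 50 for Fdft1 (Mvk), 54 for Srebf2 (Sqle), 69 for Fdps (Fdft1) and 144 for Idi1 (Sc5d). Within the 100 nearest profiles, Hmgcs1 had 4 pathway genes, Fdft1 and Sqle 2 each, Srebf2 and Fdps 1 each, and Idi1 and Dhcr7 0.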

How the data were processed

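Total RNA of 6 retinae was made into poly(A)-selected, stranded TruSeq libraries and sequenced as read pairs. The authors deposited raw counts per gene symbol, without normalization. The paper names STAR and HTSeq on GRCm38, whereas the submitters' processing notes name TopHat2 and featureCounts. The strand setting of the counting is not given in the sources used here.

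Genes with at least 10 counts in all were tested with edgeR 4.0.16 in R 4.3.3 (TMM, quasi-likelihood F test, Benjamini-Hochberg over 16904 genes). The study used DESeq2, and here DESeq2 1.42.0 was an alternative. A gene rose or fell at an adjusted p of at most 0.05. The standard error is the log2 fold change over the square root of F, and the 95% intervals use the test's degrees of freedom. The code was tested on simulated data. The 7 genes and the gene and marker lists were chosen with earlier results of these data known. Any gene of the cholesterol lists, the first 2 markers of a list and the profiles nearest to each gene could be named, and some of these are not reported here. Positions and lengths come from a GENCODE annotation of GRCm38. Between libraries of 1 group, the chi-square over its degrees of freedom was 8.97 to 26.6, which exceeds sampling noise. Other scalings and filters, robust dispersion, a replicate block, a stricter threshold and each retina left out were alternatives.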

Additional observations from a re-analysis of the deposited data

How the results depend on the processing

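The 7 genes had fitted values above 0 in all alternatives run, and the number of them that passed was 1 under DESeq2's size factors, upper quartile scaling and no filter. It was 2 under filterByExpr, a minimum of 10 counts in every library and robust dispersion, 4 under DESeq2, and 0 with total counts alone or at an adjusted p of at most 0.01. DESeq2 called 5 of the other enzymes, 4 higher and 1 lower, where 8.94% of 16549 genes were called higher. Total counts alone gave 778 genes higher in TKO by the adjusted p. By that scaling 1 gene of SREBP processing passed, counted in either direction, and the median log2 fold change of that list was -0.066. At an adjusted p of at most 0.01, 421 genes were differentially expressed by the 3 criteria and 216 were higher by the adjusted p, against 1074 and 1243 as reported.

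The labels do not say whether the replicate numbers pair the retinae. The correlations of deviations from the group means were 0.072, -0.041 and -0.16 for numbers 1, 2 and 3. Such values cannot exclude a pairing, because group differences between retinae of the same number could hide it. A fit with the number as a replicate block had 90 genes that were differentially expressed, 24 were higher by the adjusted p, and 0 of the 7 genes, 0 other enzymes and 0 genes of uptake, efflux and fatty acid synthesis passed.

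With 1 retina left out, the range was 471 to 1500 differentially expressed genes, 214 to 1617 genes higher by the adjusted p, 0 to 5 of the 7 genes, 0 to 6 other enzymes, 0 to 3 genes of SREBP processing, 0 to 3 of uptake, 0 to 7 of efflux, 0 to 1 of the isoprenoid branch and 0 to 5 of fatty acid synthesis. These counts of the lists take genes that passed in either direction. Upper quartile scaling turned Srebf1 to -0.015 and Ggps1 to -0.013 on the log2 scale. Total counts alone turned Srebf1 and Ggps1 to -0.14 each, Tm7sf2 to -0.11, Hsd17b7 to -0.032, Erg28 (0610007P14Rik in the table) to -0.038 and Ebp to -0.040. With 1 retina left out, the log2 fold change ran from -0.10 to 0.16 for Tm7sf2, from -0.047 to 0.24 for Hsd17b7, from -0.022 to 0.21 for Ebp, from -0.021 to 0.049 for Srebf1, from -0.043 to 0.075 for Ggps1 and from -0.13 to 0.0059 for Ctsb. The longest transcript gave a ratio of 2.90 between the highest and the lowest level per kilobase. The cause of these changes was not tested. With 3 retinae a group, the intervals of the log2 fold change included 0 for Sqle (-0.040 to 0.48) and Srebf2 (-0.066 to 0.62). This was not so for every gene with a difference of that size. The interval of Dhdds, at a log2 fold change of 0.22, ran from 0.045 to 0.39.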
